A study of Mus musculus with 3 samples.

Results

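The genes described here are 10 components of the canonical Wnt and beta-catenin pathway, out of 24318 genes with an identifier, followed by their H3K36me3 signal in pancreatic epithelial cells of the mouse embryo. They were chosen by Ensembl identifier, and all 10 were present at every stage. The 3 groups are embryonic days E11.5, E13.5 and E15.5. The cells came from wild-type C57BL/6 embryos, carried the epithelial surface protein EpCAM and were purified by flow cytometry. H3K36me3 was profiled by CUT&Tag, in which an antibody guides a transposase to cut and tag DNA beside a histone mark, and 1 library was analysed per stage, 3 in all. The files hold no counts, so the depth behind each value is unknown. No second library of a stage was analysed, so every difference is a size in these libraries, with no test and no spread between embryos. No library without the H3K36me3 antibody was analysed here, and marker genes of pancreatic or other cells could not be looked up by identifier, so the purity of the sort was not checked. Whether embryos were pooled is not stated.

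H3K36me3 is laid down by the methyltransferase SETD2 as RNA polymerase II elongates and lies over the bodies of transcribed genes. In the canonical pathway, Wnt ligands bind Frizzled receptors together with the co-receptors LRP5 and LRP6. This disarms a destruction complex built on APC and the axins, beta-catenin builds up, and it enters the nucleus to activate genes with TCF/LEF DNA-binding proteins. In the mouse pancreas, loss of Ctnnb1, the gene of beta-catenin, is known chiefly for its effect on acinar tissue.

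Each gene has 3 deposited values per library, headed GB, PR and SE, all mean signal per position. PR is a mean over 6000 positions and SE over 12000, as the values show, and neither abbreviation is spelled out. GB window lengths were worked out from the values and set against the gene's length in the RefSeq annotation of GRCm38.p6. For 4 of the 10 genes the lengths were equal, namely Ctnnb1 (ENSMUSG00000006932, chr9:120933400-120960507, 27108 positions), Lef1 (ENSMUSG00000027985, chr3:131110297-131224357, 114061), Lgr5 (ENSMUSG00000020140, chr10:115450314-115587780, 137467) and Tcf7l1 (ENSMUSG00000055799, chr6:72626371-72789045, 162675). Lrp6 (ENSMUSG00000030201, chr6:134446476-134566913) differed by 2 positions, Tcf7l2 (ENSMUSG00000024985, chr19:55741797-55933659) by 17 and Lrp5 (ENSMUSG00000024913, chr19:3584825-3686585) by 21. The window of Apc (ENSMUSG00000005871) was 687 positions shorter than the RefSeq gene, that of Axin2 (ENSMUSG00000000142, chr11:108917828-108950783) 2523 and that of Axin1 (ENSMUSG00000024182, chr17:26131217-26195811) 7469. For the 4 equal genes the GB window is therefore as long as the whole gene, introns and UTRs included, and GB is read below as the gene body. Ctnnb1 and Axin2 fall among the windows of 12000 to 50000 positions and the other 8 genes among those of 50000 to 200000. Percentiles are given among all identified genes and, since median GB was lower in longer genes at each stage, among genes of the same length class (7867 and 3815 genes).

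Gene-body signal of the pathway genes lay above the middle of the library at each stage. GB was above the median of all identified genes in 9 of 10 members at E11.5, in 9 at E13.5 and in 10 at E15.5, and the median percentile of the members was 64.6, 63.7 and 69.7 in stage order. Within the length classes, 8, 9 and 8 of the 10 lay above the median. Median GB of the members was 0.00605, 0.00567 and 0.00752 in stage order, against 0.00432, 0.00421 and 0.00371 over all identified genes. The co-receptor gene Lrp5 stood highest in every library, and Lgr5, the gene of an R-spondin receptor, lowest at the earlier stages.

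**Figure D1:**
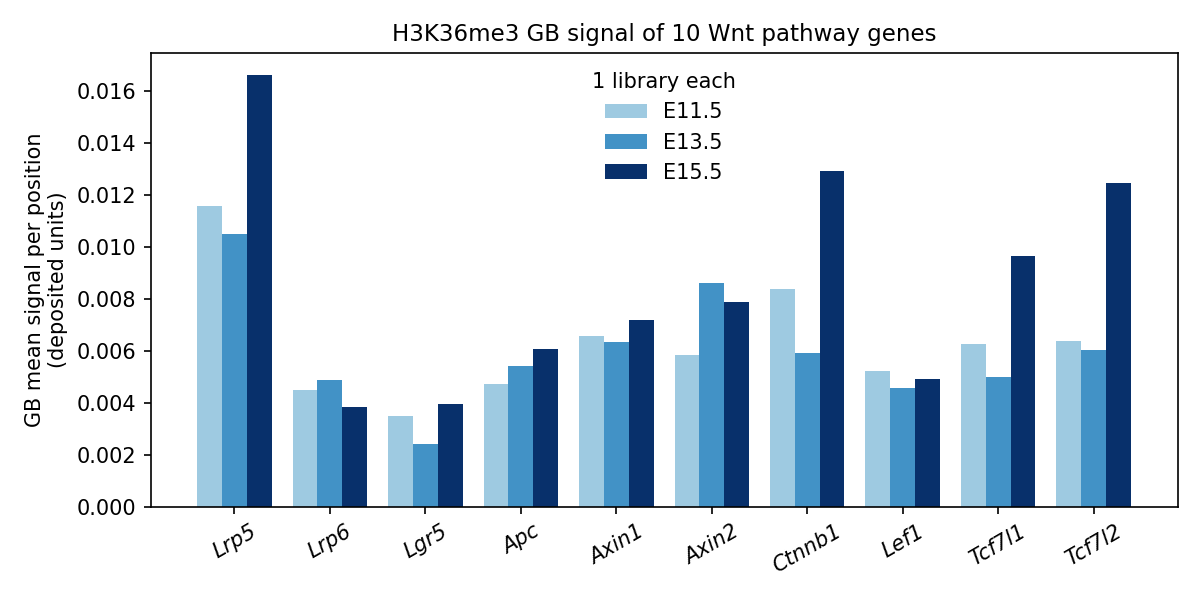
GB signal, the mean over the gene-body window in deposited units, of the 10 pathway genes at the 3 stages. Each bar is 1 library and has no error bar. Lrp5 is highest at every stage, at 0.0115, 0.0105 and 0.0166, and the E15.5 bars of Ctnnb1, Tcf7l1 and Tcf7l2 are well above their E13.5 bars.

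Among the receptors, Lrp5 and Lrp6 encode related co-receptors that bind Wnt together with Frizzled, and their gene bodies differed at all stages. Lrp5 had GB of 0.0115, 0.0105 and 0.0166 in stage order, at percentiles 98.4, 98.0 and 98.3 of its length class. Lrp6 had 0.00450, 0.00489 and 0.00385, at percentiles 49.9, 59.0 and 48.0. Lrp5 thus stayed near the top of its class while Lrp6 stayed near the middle. Both genes fall in the same length class.

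Lgr5, whose product binds R-spondins to strengthen Wnt signalling and which marks stem cells of the gut, had GB of 0.00349, 0.00242 and 0.00397 in stage order. These lay at percentiles 31.6, 11.6 and 49.5 of its length class. All 3 values were below 0.00413, the floor used for calls of change, which is the median GB over all identified genes and libraries. Lgr5 was the only one of the 10 that did not reach the GB floor in any library.

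The destruction complex genes each had another order of stages. Axin1, a scaffold of the complex, had GB of 0.00658, 0.00635 and 0.00719 in stage order, at percentiles 79.4, 79.4 and 81.1 of its class. At E15.5 its PR sum was as large as 71.3% of its GB sum, and whether the PR window overlaps the gene was not tested. Apc, the tumour suppressor that binds beta-catenin within the complex, had 0.00471, 0.00543 and 0.00609, so that the value was higher at each later stage. Axin2, a scaffold that is also a widely used transcriptional target of the pathway, was, like Lrp6, highest at E13.5, with 0.00583, 0.00863 and 0.00786. Its percentile in the class was 53.7, 80.2 and 65.1.

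Ctnnb1 and the genes of its DNA-binding partners fell into 2 kinds of profile. Ctnnb1 had GB of 0.00839, 0.00592 and 0.0129 in stage order, lowest at E13.5. Tcf7l1, known mainly as a repressor when beta-catenin is absent, had 0.00627, 0.005002 and 0.00963, and Tcf7l2, the main TCF of the gut epithelium, had 0.00637, 0.00605 and 0.0124. All 3 were highest at E15.5. Lef1, first known as a factor of lymphocytes, stayed instead between 0.00457 and 0.00521 over the stages, at percentiles 61.1, 53.5 and 61.5. By distance over the 3 log2 GB values, Ctnnb1 and Tcf7l2 were each other's closest member (0.35), Tcf7l1 was closest to Tcf7l2 (0.41), and Lef1 was closest to Lrp6 (0.35). Over the 9 values of GB, PR and SE, the identified rows closest to Ctnnb1 were ENSMUSG00000008932 (1.02) and ENSMUSG00000042010 (1.09). With 3 libraries such closeness is a description only.

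**Figure D2:**
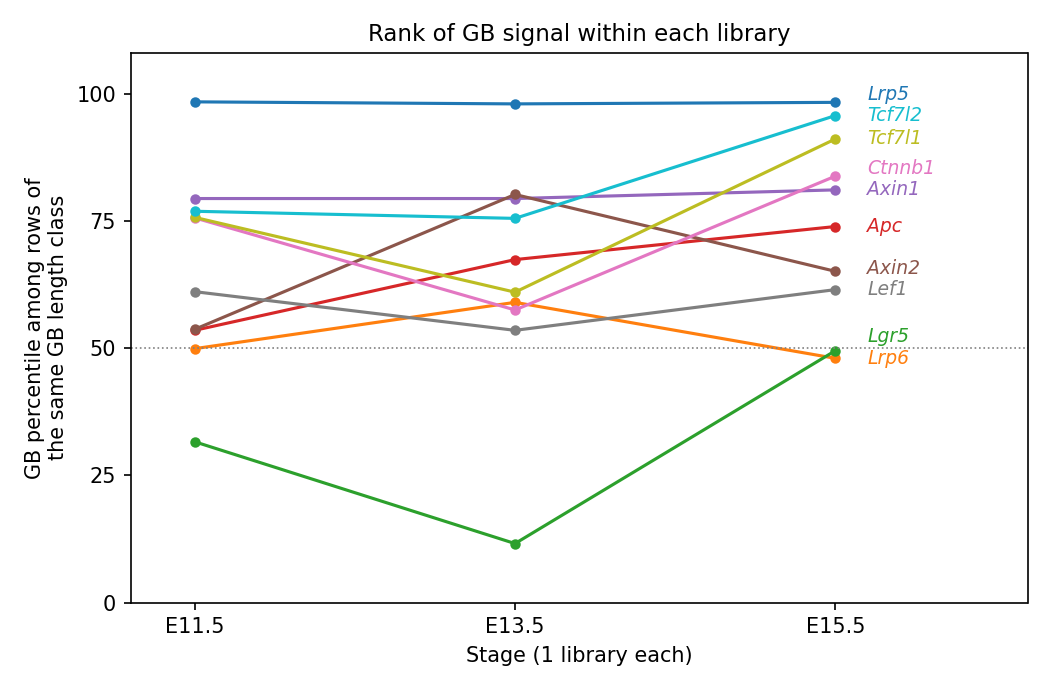
Percentile of GB among genes of the same window length class, within each library, for the 10 pathway genes at the 3 stages (1 library each). The dotted line marks the class median. Lrp5 stays at about 98, Tcf7l2, Tcf7l1 and Ctnnb1 end at 95.7, 91.1 and 83.8, and Lgr5 has the lowest point, 11.6 at E13.5.

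The first interval compares E13.5 with E11.5. Genes were called higher or lower where log2(value + 0.001) differed by at least 2-fold and the higher library reached the floor. In GB, 0 members were called higher and 0 lower, where 17.2% of identified genes above the floor were called higher and 19.4% lower. Among genes of 50000 to 200000 positions above the floor the shares were 2.55% and 2.4%, and among those of 12000 to 50000 positions 10.5% and 12.5%. GB lay higher at E13.5 in 3 members and lower in the other 7. The median log2 ratio of all 10 members, with no floor, was -0.10, against -0.07 over identified genes above the floor. The difference furthest above 0 was that of Axin2, 0.00863 at E13.5 and 0.00583 at E11.5 (log2 ratio 0.50), and the furthest below was that of Ctnnb1, 0.00592 and 0.00839 (log2 ratio -0.44). These lay at percentiles 75.9 and 32.1 of the ratios in their length class, well inside its spread.

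The second interval compares E15.5 with E13.5. Ctnnb1 GB was 0.0129 at E15.5 and 0.00592 at E13.5, 2.18 times as high, and it was the 1 member called higher in GB, with 0 called lower. Its GB sums were 2146 steps at E15.5 and 958 at E13.5, a step being the smallest amount that 1 position adds to a sum. Steps are not reads, and how many reads lie behind these sums is unknown. The call was lost after quantile normalization (log2 ratio 0.66, against 1.01 as deposited) and at a pseudocount of 0.005 (0.71). The shares over identified genes above the floor were 27.6% higher and 22.1% lower. Most members fall in a length class with smaller shares, given below, so their count is not read against these. Tcf7l2 was 2.06 times as high, with 0.0124 at E15.5 and 0.00605 at E13.5, and Tcf7l1 1.93 times, with 0.00963 and 0.005002. With the pseudocount their log2 ratios were 0.93 and 0.82, just short of the call. They lay at percentiles 91.9 and 88.9 of the ratios in their length class, where 6.48% of genes were called higher and 9.89% lower. Ctnnb1 lay at percentile 78.4 of its class of shorter genes, in which ratios spread more widely and 21.8% were called higher and 17.1% lower. Relative to genes of like length, the difference was thus further out in Tcf7l2 and Tcf7l1 than in Ctnnb1.

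The remaining members had smaller GB ratios over this interval. Lrp5 was 1.58 times as high at E15.5 (log2 ratio 0.62, -0.03 after quantile normalization) and Lgr5 1.64 times, below the floor in both libraries. Apc, Axin1 and Lef1 had ratios of 1.12, 1.13 and 1.08, with Axin1 at a log2 ratio of -0.03 after quantile normalization. Lrp6 was lower at E15.5, at 0.786 times E13.5, and Axin2 at 0.911 times, which became a log2 ratio of 0.05 when each library was divided by its median GB. That scaling raises a log2 ratio without pseudocount by 0.19 here and by 0.22 for E15.5 over E11.5, and the GB ratios of the members, which hold the pseudocount, by slightly less. In the deposited values GB lay higher at E15.5 in 8 of 10 members, counted with no floor and including Lgr5, which was below it. The shares were 56.7% of identified genes above the floor and 50.2% of those with at least 50000 positions.

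**Figure D3:**
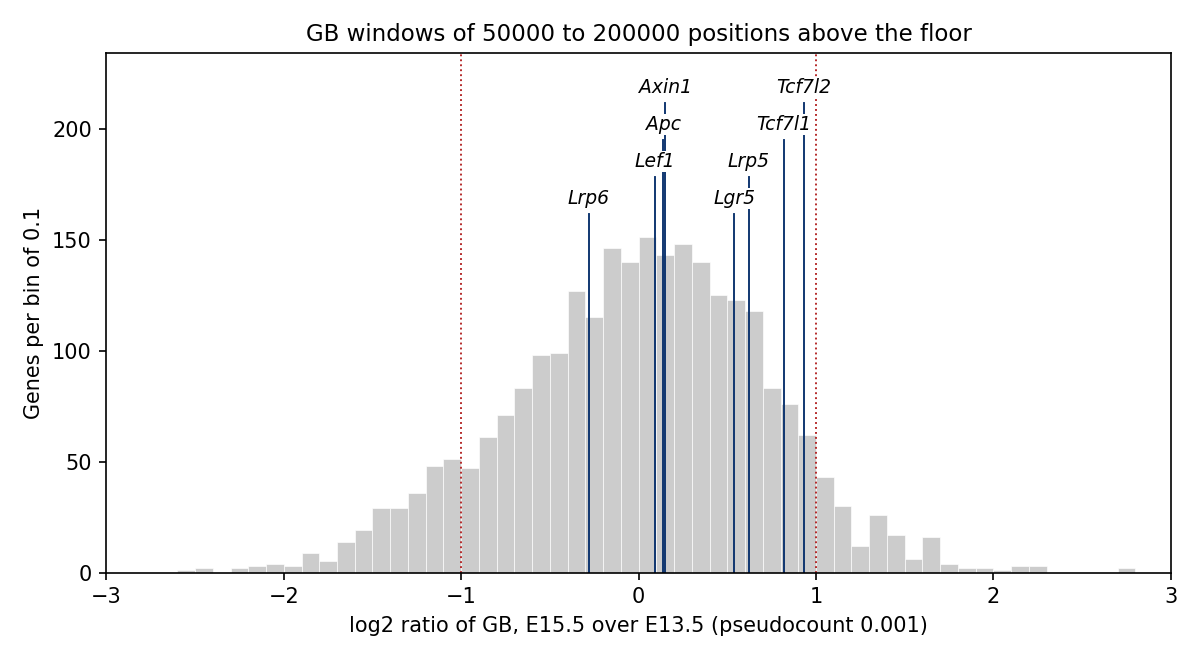
Distribution of log2 GB ratios, E15.5 over E13.5, over genes with GB windows of 50000 to 200000 positions above the floor (grey, genes per bin of 0.1), with the 8 pathway genes of that length as lines. Dotted lines mark 2-fold. Tcf7l2 (0.93) and Tcf7l1 (0.82) lie on the right shoulder, Lrp6 (-0.28) is left of 0, and Lgr5 is drawn although it was below the floor.

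Over both intervals together, E15.5 was compared with E11.5, which uses the E15.5 library a second time. No member was called in GB, 0 higher and 0 lower, where 26.5% of identified genes above the floor were called higher and 22.8% lower. The shares were 6.94% and 9.43% among genes of 50000 to 200000 positions and 20.9% and 18.1% among those of 12000 to 50000. Tcf7l2 had the widest difference, 0.0124 at E15.5 and 0.00637 at E11.5, or 1.95 times (log2 ratio 0.87, percentile 90.5 of its class). Ctnnb1 and Tcf7l1 were each 1.54 times as high at E15.5, since both had been higher at E11.5 than at E13.5. Lrp6 was 0.854 times and Lef1 0.943 times E11.5, with a log2 ratio of 0.12 for Lef1 after division by the median GB. The median log2 ratio of the members was 0.34, against 0.14 over identified genes above the floor.

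PR is taken over a window of fixed length whose place along the gene no source gives. For 4 members the 250 bases before a transcription start are shown, taken from RefSeq (GRCm38.p6) on the strand of the gene. The genes are Tcf7l2 (chr19:55741560-55741809, plus strand) and Tcf7l1 (chr6:72789046-72789295, minus strand), with PR among the 3 highest of the members at E15.5, Axin2 (chr11:108920099-108920348, plus strand), with PR at 0 at E13.5, and Lef1 (chr3:131110047-131110296, plus strand), with the lowest PR of the members at E15.5. The Axin2 stretch lies inside the annotated gene, before an inner start, and the others lie at or close to the gene's outer start. Capitals mark matches to the TCF/LEF core letters CTTTGA or CTTTGT on either strand (TCAAAG or ACAAAG when read on the other).
Tcf7l2: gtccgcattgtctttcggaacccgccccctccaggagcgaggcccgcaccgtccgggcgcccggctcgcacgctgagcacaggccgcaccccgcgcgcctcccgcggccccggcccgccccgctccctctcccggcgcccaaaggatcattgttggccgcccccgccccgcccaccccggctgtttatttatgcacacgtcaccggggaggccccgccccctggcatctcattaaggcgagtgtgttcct
Tcf7l1: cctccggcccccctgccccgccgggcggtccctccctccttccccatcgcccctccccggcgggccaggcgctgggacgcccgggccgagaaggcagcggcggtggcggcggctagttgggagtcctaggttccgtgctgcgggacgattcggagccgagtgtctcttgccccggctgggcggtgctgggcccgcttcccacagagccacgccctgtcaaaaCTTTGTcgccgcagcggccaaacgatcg
Axin2: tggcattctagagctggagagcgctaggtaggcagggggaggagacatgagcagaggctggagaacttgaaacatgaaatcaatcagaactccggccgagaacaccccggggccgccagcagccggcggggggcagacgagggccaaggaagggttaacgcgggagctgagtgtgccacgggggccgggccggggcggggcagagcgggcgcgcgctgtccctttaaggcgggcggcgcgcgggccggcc
Lef1: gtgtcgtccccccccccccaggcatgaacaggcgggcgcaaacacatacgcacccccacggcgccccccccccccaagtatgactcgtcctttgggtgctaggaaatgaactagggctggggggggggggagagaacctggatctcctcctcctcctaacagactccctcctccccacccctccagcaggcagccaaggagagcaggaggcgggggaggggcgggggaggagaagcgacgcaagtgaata
Tcf7l1 held 1 match, CTTTGT, whose first base lies 28 bases before the start, and the other sequences held 0. Of 32851 promoter entries in the RefSeq table, 27.6% held at least 1 match in the same 250 bases. All 4 are rich in G and C, at 72.8% in Tcf7l2, 73.6% in Tcf7l1, 69.2% in Axin2 and 66.4% in Lef1, against a median of 52.4%. CpG dinucleotides numbered 30, 29, 24 and 11 in the same order, with a median of 6 over all entries. A match is a description of letters and not of binding.

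PR of the pathway genes was highest at E15.5, in a library where PR of all identified genes was also spread more widely. In stage order, PR was at 0 in 7.6%, 11.9% and 22.1% of identified genes. The 95th percentile of PR over identified genes was 0.0168, 0.0152 and 0.0430. GB was at 0 in 12.9%, 14.8% and 20.3% of them. How far this spread bears on the members was not tested. The median over the 10 members was 0.00351, 0.00435 and 0.0133 in stage order, against 0.00394, 0.00368 and 0.00559 over all identified genes, and the median percentile was 47.0, 54.8 and 67.2. Tcf7l2 had PR of 0.00394, 0.0108 and 0.0633, at percentiles 50.1, 87.4 and 98.5 of all identified genes. Axin1 had 0.00308, 0.00508 and 0.0488, at percentile 96.6 at E15.5, and Tcf7l1 had 0.00221, 0.00101 and 0.0405, at percentile 94.1. These 3 genes stood apart from the other 7 members at E15.5, whose PR lay between 0.00364 in Lef1 and 0.0180 in Lrp5.

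Among the receptor genes, Lrp5 had PR of 0.00917, 0.00748 and 0.0180 in stage order and Lrp6 had 0.00451, 0.00664 and 0.00820. Lgr5 was listed at 0 at E11.5 and had 0.000390 and then 0.0108 at the later stages, at percentiles 3.8, 18.5 and 61.7. Lgr5 was thus low among identified genes in PR at the earlier stages and above the middle at E15.5. Apc had 0.0129, 0.00737 and 0.0136, the highest PR of the members at E11.5. Axin2 had 0.00491, 0 and 0.0113. Ctnnb1 had low PR at the earlier stages, with 0.00211, 0.00168 and 0.0130 in stage order at percentiles 36, 32.1 and 66.6. Lef1 had 0.000458, 0.00363 and 0.00364, and was the one member whose PR stayed below the floor at all stages.

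**Figure D4:**
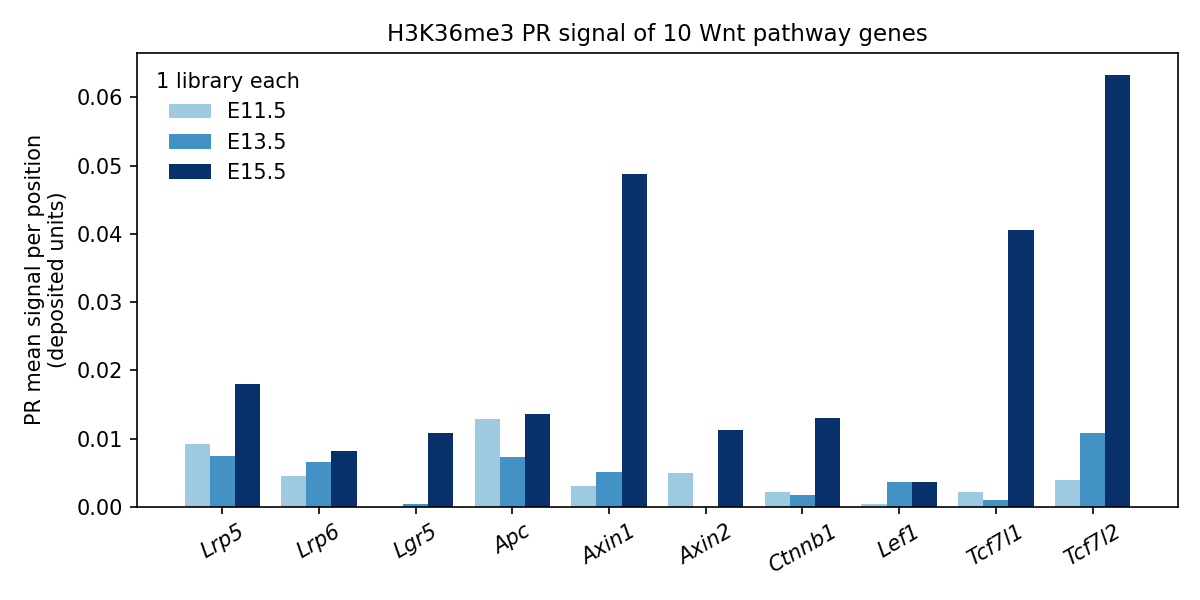
PR signal, the mean over a window of 6000 positions in deposited units, of the 10 pathway genes at the 3 stages. Each bar is 1 library and has no error bar. At E15.5 Tcf7l2, Axin1 and Tcf7l1 reach 0.0633, 0.0488 and 0.0405 and the other members stay at or below 0.0180.

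Between E15.5 and E13.5, PR was called higher in 7 members and lower in 0, where 52.2% of identified genes above the floor were called higher and 24.7% lower. The shares were 57.7% and 20.9% among genes of 50000 to 200000 positions and 55.0% and 21.9% among those of 12000 to 50000. The called genes were Lrp5, Lgr5, Axin1, Axin2, Ctnnb1, Tcf7l1 and Tcf7l2. Of these, Lgr5, Axin2, Ctnnb1 and Tcf7l1 were below the PR floor of 0.00407 at E13.5. They passed it only through E15.5, where they were high, so a lower call was not open to them. The shares over identified genes rest on the same floor rule. The median log2 PR ratio was 2.42 over all 10 members, with no floor. It was 1.12 over identified genes above the floor and 1.34 over those with at least 50000 positions. Of identified genes above the floor, 67.1% had higher PR at E15.5, and 70.5% of those with at least 50000 positions. Tcf7l1 was 40.3 times as high, with 0.0405 at E15.5 and 0.00101 at E13.5, at percentile 94.5 of the PR ratios in its length class. Lgr5 was 27.6 times as high, with 0.0108 and 0.000390, at percentile 79.5 of its class. The low side of both folds is thin, because the PR sum of Tcf7l1 at E13.5 was 36 steps and that of Lgr5 14 steps, a step being the smallest amount that 1 position adds to a sum.

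Axin1 PR was 9.60 times as high at E15.5 as at E13.5, Ctnnb1 7.78 times and Tcf7l2 5.88 times. These ratios lay at percentiles 78.7, 71.2 and 69.3 of the PR ratios in their length class, inside its spread. The E13.5 PR sums under these folds were 182 steps in Axin1, 60 in Ctnnb1 and 386 in Tcf7l2. Axin2 was listed at 0 at E13.5 and had 0.0113 at E15.5, so no fold is given. Its log2 ratio, which holds the pseudocount, lay at percentile 89.8 of its class. Lrp5 was 2.4 times as high, at percentile 45.1 of the PR ratios in its length class. The Lrp5 call was lost after quantile normalization (log2 ratio 0.06, against 1.16 as deposited) and at a pseudocount of 0.005 (0.88). Apc (1.85 times) and Lrp6 (1.23 times) were not called, and after quantile normalization their log2 ratios were -0.24 and -0.62. Lef1 stood at 0.00364 in the E15.5 and 0.00363 in the E13.5 library, below the PR floor of 0.00407 in both.

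Between E15.5 and E11.5, PR was called higher in 6 members and lower in 0, with 50.0% and 26% of identified genes above the floor. The shares were 56.6% and 21.9% among genes of 50000 to 200000 positions and 52.5% and 22.9% among those of 12000 to 50000. Of the called genes, Lgr5, Axin1, Ctnnb1, Tcf7l1 and Tcf7l2 were below the PR floor at E11.5. They passed it only through E15.5, so a lower call was not open to them. Tcf7l1 was 18.3 times as high, Tcf7l2 16.1 times, Axin1 15.9 times, Ctnnb1 6.19 times and Axin2 2.30 times. In the same order, these ratios lay at percentiles 89.1, 89.4, 88.0, 69.7 and 48.7 of their length class. The E11.5 PR sums under them were small as well, at 82, 146, 114, 78 and 182 steps. Lgr5 had 0.0108 at E15.5 and was listed at 0 at E11.5. The Axin2 call was lost after quantile normalization (log2 ratio 0.31, against 1.06 as deposited) and at a pseudocount of 0.005 (0.72). Apc had nearly the same PR, 0.0136 at E15.5 and 0.0129 at E11.5, where it was the highest member, and its log2 ratio was -0.97 after quantile normalization. Between E13.5 and E11.5, Tcf7l2 was called higher (0.0108 at E13.5, 0.00394 at E11.5) and Axin2 lower (0 at E13.5, 0.00491 at E11.5), 1 member each, where 28.8% of identified genes above the floor were called higher and 32.8% lower. Both of these calls were lost at a pseudocount of 0.005 (log2 ratios 0.82 and -0.99).

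PR and GB of a gene can be compared within a library, where any scale factor cancels. PR exceeded GB in 2 members at E11.5 (Apc and, by a narrow margin, Lrp6), in 3 at E13.5 (Apc, Lrp6 and Tcf7l2) and in 9 at E15.5, all but Lef1. Over identified genes with GB above 0 the share was 39.9%, 38.1% and 51.9% in stage order. Among those of at least 50000 positions it was 41.2%, 40.2% and 58.3%. The median ratio of PR to GB over the members was 0.543, 0.753 and 2.19, against 0.770, 0.740 and 1.08 over identified genes. Genes of at least 50000 positions, the length of most members, had median ratios of 0.761, 0.756 and 1.60. At E15.5 the ratio was 6.79 in Axin1, 5.09 in Tcf7l2 and 4.21 in Tcf7l1, and 0.740 in Lef1.

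The size of the PR sum bears on the GB values if the PR window overlaps the gene, which was not tested. At E15.5 the PR sum was 71.3% of the GB sum in Axin1, 28.3% in Axin2 and 22.4% in Ctnnb1, but 15.9% in Tcf7l2 and slightly less in Tcf7l1. With the whole PR sum taken off the GB sum in both libraries, the ratio of E15.5 over E13.5 was 1.83 in Tcf7l2, 1.80 in Ctnnb1 and 1.64 in Tcf7l1, still above 1. In Axin1 the same step left 0.355 times E13.5, against 1.13 times with the PR sum in place.

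The SE window holds as much summed signal as PR or more in every gene with an SE value, and the difference was taken as the signal outside PR. SE was 0.00715, 0.00586 and 0.0375 in Tcf7l2 and 0.00173, 0.000503 and 0.0203 in Tcf7l1, in stage order. Axin1 had 0.00318, 0.00547 and 0.0244, and Lrp6 had 0.00480, 0.00728 and 0.0106. All 4 were highest at E15.5, and so were Lrp5, Lgr5, Axin2 and Ctnnb1. Apc, with 0.00990, 0.00728 and 0.00730, was highest at E11.5, and Lef1, with 0.00264, 0.00377 and 0.00182, at E13.5. Of the 10 members, 0 at E11.5, 1 at E13.5 (Tcf7l1) and 3 at E15.5 (Axin1, Lef1 and Tcf7l1) had no signal outside PR, where 8.7%, 11.7% and 32.1% of identified genes had none. The E15.5 signal of Axin1 and Tcf7l1 in the wider window thus lay wholly within PR, and that of Tcf7l2 mostly, with 380 of a sum of 450 in PR. Lrp6 was the reverse case, with 0.0131 outside PR and 0.00820 inside at E15.5. SE was called higher in 5 members and lower in 0 for E15.5 over E13.5 (45.7% and 17.9% of identified genes above the SE floor of 0.00460). The shares were 50.8% and 16.4% among genes of 50000 to 200000 positions and 47.5% and 16.4% among those of 12000 to 50000. Of the called genes, Lgr5, Axin2 and Tcf7l1 were below the SE floor at E13.5 and passed it only through E15.5. For E15.5 over E11.5, SE was called higher in 6 and lower in 0 (42.7% and 19.7%). The shares were 47.9% and 17.1% in the class of longer genes and 44.0% and 18.5% in that of shorter genes. Here Lgr5, Axin1, Ctnnb1 and Tcf7l1 were below the SE floor at E11.5 and passed it only through E15.5. For E13.5 over E11.5, 7 members reached the SE floor in at least 1 library. SE was called higher in 1 of them, Ctnnb1, with 0.00460 and 0.00119, and lower in 0 (19.9% and 24.8%). That E13.5 value only just reached the SE floor, and the E11.5 sum was 88 steps. No alternative setting was run for the SE ratios.

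**Figure D5:**
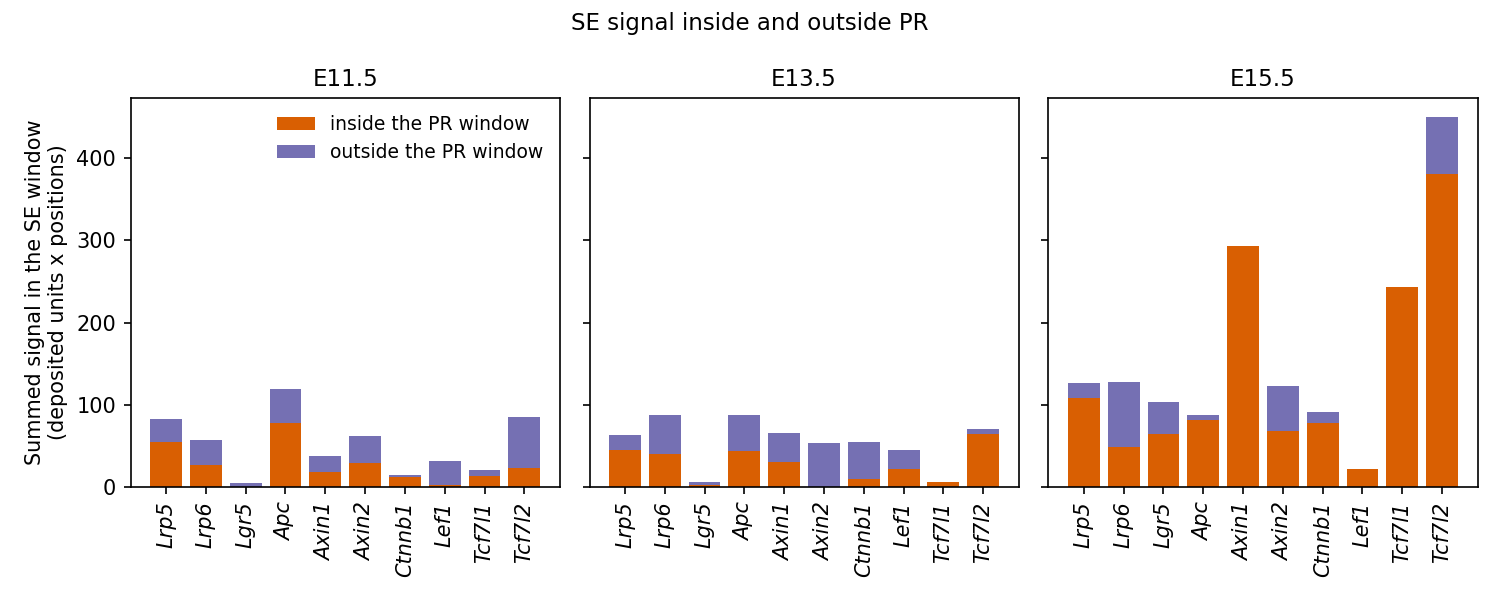
Summed signal in the SE window of 12000 positions (deposited units times positions), split into the part inside the PR window of 6000 positions and the part outside it, for the 10 pathway genes at each stage (1 library each). At E15.5 Axin1, Tcf7l1 and Lef1 have no part outside PR, and Tcf7l2 has the largest sum, 450.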

How the data were processed

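H3K36me3 CUT&Tag was analysed in 1 library each of E11.5, E13.5 and E15.5. Per the submitters' processing notes, Bowtie2 2.4.2 was used with mm10; filters, scaling and gene models are not stated. Per the file headers, the authors deposited a signal per gene under PR, GB and SE, in 25493 rows. The 1175 rows without an identifier were left out of the percentiles, except in 1 alternative.

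PR times 6000 gave whole multiples of a step per library (0.16188, 0.16743 and 0.16292 in stage order) for 100.0% of values above 0, within the rounding of sums to 2 decimals. The GB length is the shortest at which all libraries above 0 gave whole steps, searched to 90000 positions with 2 libraries and 600000 with 3. It was found for 19724 genes, and the search was tested on simulated windows. Percentiles take the middle of tied ranks. Python 3.11.15, numpy 2.4.6 and pandas 2.3.3 were used.

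Calls need a 2-fold difference at a pseudocount of 0.001 and the floor (0.00413 for GB, 0.00407 for PR). With 1 library per stage no test was run. Members, lists and settings were chosen with earlier results of these data known. Symbols came with the member list. The Tcf7l1 and Tcf7l2 promoters were added after their PR values were seen. The RefSeq table holds 0 Ensembl identifiers, so other pathway genes and markers of epithelial or other cell types were not used here. By rule all 10 members are named, and for Ctnnb1 the closest rows by identifier.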

Additional observations from a re-analysis of the deposited data

How the results depend on the processing

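No paired analysis was possible because no stage has a second library. Of the alternatives run for summary values, 159 stayed close to the value reported and 24 moved (over 10 percentile points, 0.25 on the log2 scale or 1.5 times). Among genes of at least 50000 positions, the median GB percentile of the members was 75.8 at E11.5 and 84.8 at E15.5. The median percentile of their log2 GB ratios there was 69.1 for E15.5 over E13.5, against 53.9 among all, and 71.0 for E15.5 over E11.5, against 56.2. A pseudocount of 0.0001 gave 2 members higher in GB for E15.5 over E13.5, and median log2 PR of 2.72 for that pair and 2.66 for E15.5 over E11.5. A pseudocount of 0.005, which shrinks ratios by construction, gave 0 higher in GB for E15.5 over E13.5, 0 higher and 0 lower in PR for E13.5 over E11.5, and median log2 PR of 1.49 for E15.5 over E13.5 and 1.03 for E15.5 over E11.5. Division by the median GB gave 2 members higher in GB for E15.5 over E13.5 and 1 for E15.5 over E11.5. Quantile normalization, which makes the distributions alike by construction, gave 0 higher in GB and a median log2 PR of 1.45 for E15.5 over E13.5. A 1.5-fold threshold gave 4 and 1 higher in GB for E15.5 over E13.5 and E11.5, and 2 lower in PR for E13.5 over E11.5. Without a floor, 2 were higher in PR for E13.5 over E11.5. With the PR sum taken off GB, an alternative added after seeing the data, 0 were higher and 1 lower (Axin1) for E15.5 over E13.5 and 1 lower for E15.5 over E11.5. At E15.5 the signal outside PR was 0.183 of GB in the median member, against 2.19 for PR. The single call in GB, Ctnnb1 for E15.5 over E13.5, was lost at a pseudocount of 0.005, under quantile normalization and without the PR sum (log2 ratios 0.71, 0.66 and 0.75), and its direction held under every alternative run for it. Among single-gene ratios of GB and PR, 17 passed the threshold and 9 fell short of it only under an alternative, and 0 reversed a call. The causes were not tested. With depth unknown, no limit of detection is given.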
